A study of Mus musculus with 8 samples.

Results

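Transcripts for glucose transport, glycolysis and pyruvate use were followed in alphaTC6 cells, a line of glucagon-producing alpha cells from a mouse pancreatic tumour. The set held 34 genes, from the plasma membrane glucose carriers to the enzymes that pass pyruvate to lactate or to the mitochondrion. They were found by symbol among the 55536 genes of the count table, and 33 of them were among the 16333 genes with enough counts to test. Cells labelled wild type were reverse transfected for 48 h using the lipid reagent RNAiMax. They received a scramble siRNA or several siRNAs (small interfering RNAs, which direct the breakdown of a matching transcript) against Klf4, a zinc finger transcription factor. Each treatment had 4 libraries. Batch 1 held scramble replicates 1 and 2 with Klf4 siRNA replicates 1, 2 and 4, and batch 2 held scramble replicates 3 and 4 with Klf4 siRNA replicate 3. The labels do not say what set the batches apart. All libraries come from 1 cell line, both groups received siRNA and the lipid reagent, and untransfected cells were not analysed here. The design text calls the libraries biological replicates without saying whether they were separate cultures, so p-values measure the spread between these libraries.

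Glucose enters cells through facilitative carriers of the SLC2A family and is trapped by hexokinase as glucose 6-phosphate, which either continues down glycolysis or enters the pentose phosphate pathway, a source of NADPH. Phosphofructokinase commits the sugar to glycolysis, and the lower enzymes split it, harvest ATP and NADH and end at pyruvate. Pyruvate is reduced to lactate and exported by monocarboxylate carriers, or enters mitochondria for oxidation by the pyruvate dehydrogenase complex, which the Pdk kinases switch off, or for carboxylation to oxaloacetate. Alpha cells release glucagon when glucose is low, and their glucose metabolism is one of the inputs to that release. Several of these genes, Ldha among them, are textbook targets of the hypoxia-inducible factors.

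Totals ran from 45954151 to 64185987 counts per library, and the 34 genes together took from 1.03% of the counts in Klf4 siRNA replicate 1 to 1.26% in scramble replicate 4. The labels name no molecular identifiers. Standard errors below come from the edgeR fit to counts, which holds the noise of counting as well as the differences among libraries. Klf4 itself stood at 39.2, 35.1, 46.3 and 46.8 CPM (a gene's counts relative to the scaled size of its library) after scramble and at 12.5, 11.5, 19.8 and 18.8 CPM after Klf4 siRNA, each in the order of replicates 1 to 4. The groups did not overlap, and the fitted level after Klf4 siRNA was 39.8% of that after scramble siRNA (log2 fold change -1.33, SE 0.17, edgeR adjusted p = 0.00830). Without scramble replicate 1 the change was -1.27 and missed the threshold (edgeR adjusted p = 0.0524). Of 11 listed alpha cell markers 10 had enough counts to test, and the other, Gc, had 0 to 4 counts. Of 9 listed beta cell markers, Ins1, Ins2, Pdx1 and Ucn3 were at 0 in all libraries and Iapp had 2 to 19 counts, whereas Nkx6-1 (5219 to 9475 counts), Slc30a8 (16883 to 26144), G6pc2 (4112 to 8298) and Mafa (143 to 207) were present. Sst of the delta cell had no more than 2 counts. Gcg, the glucagon gene, had from 52428 to 70202 counts in the libraries of batch 1 and from 402437 to 571118 in those of batch 2. Sox9, listed as a duct marker, went the same way, with 56 to 80 and 197 to 268 counts.

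The levels of the 33 tested genes spanned the lower glycolytic enzymes at the top and an inducible hexokinase and lactate carrier at the bottom. Levels are compared between genes as CPM per kilobase of annotated exon sequence, averaged over the 8 libraries. Gapdh, which oxidises glyceraldehyde 3-phosphate, stood at 607 ± 39.2 CPM per kb (SD, n = 8), followed by Aldoa at 455 ± 40.4, Tpi1 at 370 ± 28.8, Pgk1 at 218 ± 24.2, Pkm at 162 ± 22.6 and Eno1 at 141 ± 14.2. Gpi1, Eno2 and Pgam1 followed at 131 ± 12.6, 96.9 ± 15.0 and 96.2 ± 20.4. Over these 9 genes, neighbours in the order had overlapping ranges over the libraries, except Gapdh above Aldoa and Tpi1 above Pgk1. At the other end, with overlapping ranges, stood Aldoc at 1.71 ± 0.252, Pfkfb3 at 1.29 ± 0.194, Hk2 at 1.14 ± 0.254 and Slc16a3 at 0.647 ± 0.521 CPM per kb. Dividing by the longest coding transcript in place of all exons, a choice made after the data were seen, moved some genes far more than others: Mpc2 went from 12.1 to 86.6 CPM per kb and Gapdh from 607 to 1766.

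**Figure D1:**
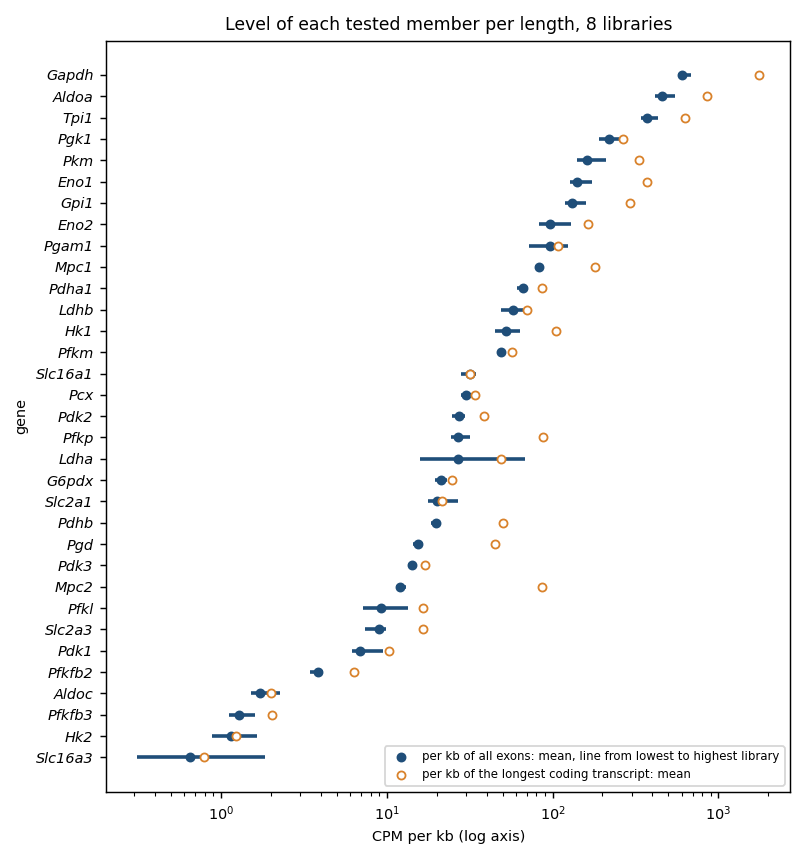
Level of each of the 33 tested genes in CPM per kilobase on a log axis. Filled points are means over 8 libraries per kilobase of all exons with lines from the lowest to the highest library, and open points are means per kilobase of the longest coding transcript. Gapdh stands highest at 607 CPM per kb and Slc16a3 lowest at 0.647, and the lines of Ldha and Slc16a3 are the longest.

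The isozyme families differed in how far 1 form prevailed. On the per-length scale Hk1, the constitutive hexokinase, made up 97.5% to 98.3% of Hk1 and Hk2 over the 8 libraries, and Aldoa 99.6% of Aldoa and Aldoc in each library to 3 digits. The phosphofructokinase subunits were more mixed, with Pfkm, the muscle form, at 52.3% to 59.8%, Pfkp, the platelet form, at 28.8% to 33.5% and Pfkl, the liver form, at 8.56% to 14.2%. The order of Pfkm and Pfkp depends on the length used: per kilobase of the longest coding transcript Pfkp stood at 87.1 CPM per kb, Pfkm at 57.0 and Pfkl at 16.6. Eno1 made up 57.2% to 62.3% of Eno1 and Eno2, the latter being the neuronal and endocrine enolase. Slc2a1 made up 65.1% to 74.5% and Slc2a3 25.5% to 34.8% of the 3 carriers. The shares of other families depend on the length too. Per kilobase of the longest coding transcript, Slc2a1 stood at 21.6 and Slc2a3 at 16.5 CPM per kb on average. On that scale Eno1 stood at 373 and Eno2 at 163, and Ldha at 48.9 and Ldhb at 69.9. Slc2a2, the carrier of beta cells and hepatocytes, had 9, 3, 8 and 9 counts in scramble replicates 1 to 4 and 3, 6, 11 and 13 in those of Klf4 siRNA, too few to test. The lactate dehydrogenase pair varied most: the Ldha share was 22.2%, 22.0%, 39.9% and 56.9% after scramble and 19.5%, 27.8%, 24.8% and 26.0% after Klf4 siRNA, in the order of replicates 1 to 4. Scramble replicates 3 and 4 stood above all other libraries in that share.

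Scramble replicate 4 stood apart for this set of genes. It was the highest of the 8 libraries for 24 of the 33 genes, where 17.7% of all tested genes were highest in that library. The ratio of its level to the mean of the other 7 libraries had a median of 1.21 over the 33 genes and 1.00 over all tested genes. The ratio was over 1.1 for 21 of the 33 genes (63.6%) and for 24.9% of all tested genes. That library also had the highest share of Gm42418, an annotated transcript that overlaps a ribosomal RNA repeat, at 1.58% of its counts against 0.0765% to 0.660% in the others, while its share of mitochondrially encoded transcripts (5.87%) lay inside the range of the series (4.11% to 5.89%). The part of these values in the results was not tested. Counts within batches, of groups that did not overlap and of interactions are given also without this library, a choice made after the data were seen.

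**Figure D2:**
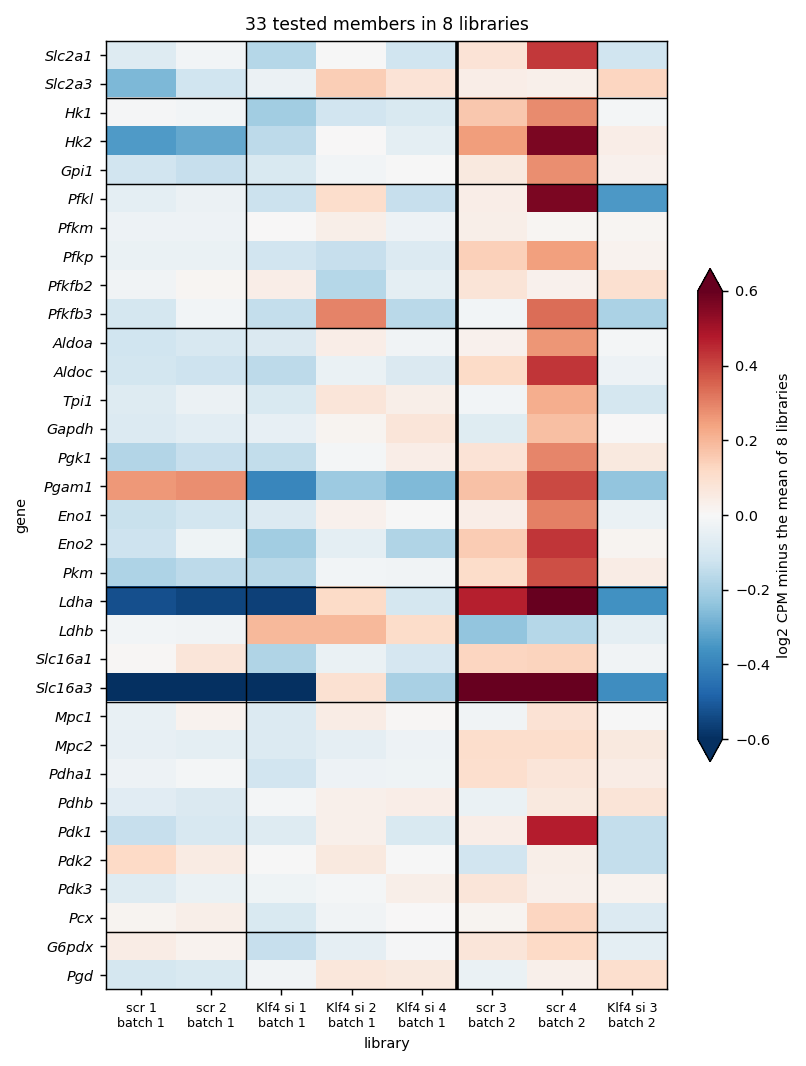
Level of each tested gene in each of the 8 libraries relative to that gene's mean over the libraries, on the log2 scale, with genes ordered by role and libraries by batch and treatment (colours saturate at 0.6 in either direction). The column of scramble replicate 4 holds the highest value for 24 of 33 genes, and the rows of Ldha and Slc16a3 span the widest range.

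The comparison of Klf4 siRNA with scramble siRNA asks which genes depend on Klf4 in alpha cells. With batch in the model, 8 of the 33 genes passed an adjusted p of 0.05. That share of 24.2% stands beside 11.7% of all 16333 tested genes. Slc2a3, Ldhb and Pgd were higher after Klf4 siRNA, and Pgam1, Hk1, Slc16a1, G6pdx and Pfkp were lower. The percentage of all tested genes was 4.88% for higher and 6.81% for lower. Apart from Pgam1 the changes that passed were small, from 0.11 to 0.20 on the log2 scale in size. The 33 log2 fold changes had a median of -0.04, with 10 positive and 23 negative, beside a median of 0.00 and 50.0% positive over all tested genes. Leaving out scramble replicate 4, 7 of the 33 passed, beside 11.2% of all genes then tested, with Pdhb gained and G6pdx and Pfkp lost. The median was then 0.01, with 17 positive and 16 negative, and without Klf4 siRNA replicate 3 it was 0.06, with 21 positive and 12 negative. The sign of the median therefore differed between these fits. For Pgam1, Slc16a1, Pcx and G6pdx, 4 of the 33, the 4 scramble and 4 Klf4 siRNA libraries did not overlap, as was the case for 10.5% of all tested genes. That held for 7 of the 33 without scramble replicate 4, with Gapdh, Pdhb and Pgd added, and for 13.4% of all 16493 genes then tested.

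**Figure D3:**
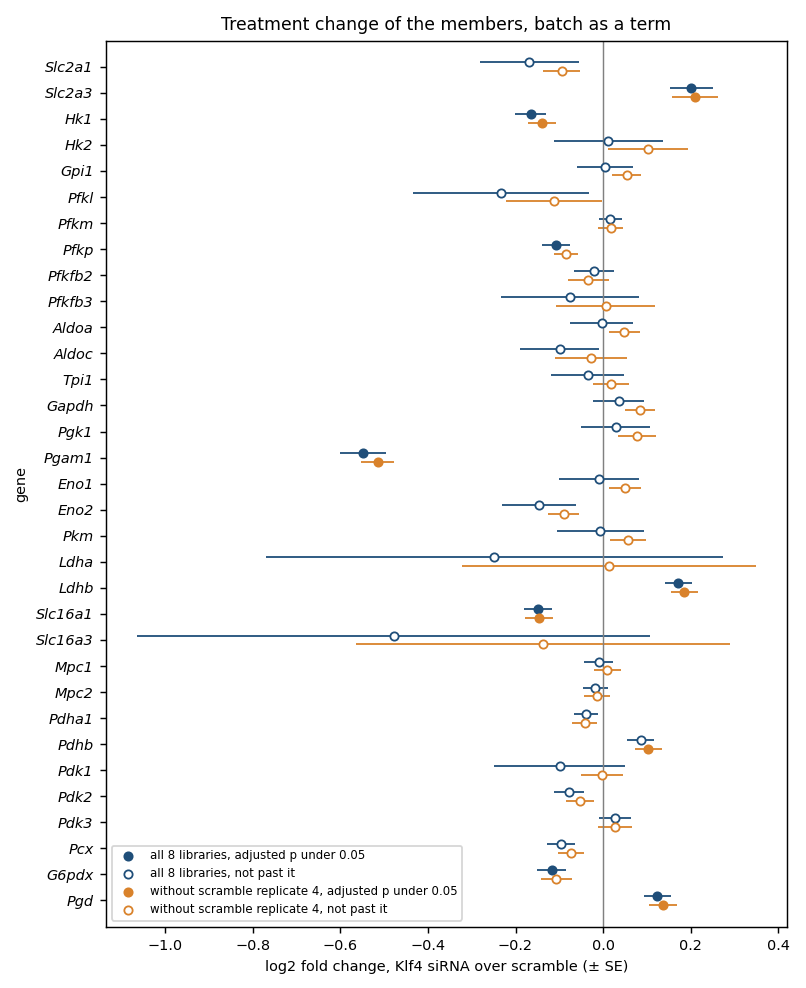
Log2 fold change of each tested gene, Klf4 siRNA minus scramble siRNA, from the fit with batch, over all 8 libraries and without scramble replicate 4, with bars of 1 standard error and filled points for an adjusted p under 0.05. Pgam1 at -0.55 lies apart from the other filled points, and the bars of Ldha and Slc16a3 are the widest.

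Pgam1, the phosphoglycerate mutase that converts 3-phosphoglycerate to 2-phosphoglycerate, had the largest fall of the genes that passed. Pgam1 (ENSMUSG00000011752, chromosome 19, positions 41911923 to 41918660 of GRCm38, plus strand) stood at 224, 227, 211 and 246 CPM in scramble replicates 1 to 4 and at 143, 161, 159 and 155 CPM in Klf4 siRNA replicates 1 to 4. Every Klf4 siRNA library lay below every scramble library. The mean was 227 ± 14.5 CPM after scramble and 154 ± 8.16 CPM after Klf4 siRNA (SD, n = 4 each). The fitted level after Klf4 siRNA was 68.4% of that after scramble (log2 fold change -0.55, SE 0.053, edgeR adjusted p = 0.000153). Within batch 1 the difference was -0.56 and within batch 2 it was -0.52. In RNA from whole cultures, fewer cells with a transcript and less of it per cell cannot be told apart. Pgam1 passed the threshold under all 17 alternatives, with an adjusted p of at most 0.00717. Its processed pseudogene Pgam1-ps2, to which reads of a near-identical copy can be assigned, had 91, 115, 101 and 125 counts in the scramble libraries and 68, 71, 58 and 50 in the Klf4 siRNA libraries, against 7021 to 14265 counts for Pgam1. No other enzyme of the lower part of glycolysis passed: Aldoa, Aldoc, Tpi1, Gapdh, Pgk1, Eno1, Eno2 and Pkm had log2 fold changes from -0.15 to 0.04.

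Pkm, the pyruvate kinase that makes pyruvate, is an example of those that did not pass. It stood at 706, 722, 866 and 1051 CPM in scramble replicates 1 to 4 and at 717, 795, 830 and 792 CPM in Klf4 siRNA replicates 1 to 4. The groups overlapped, and the fitted change was -0.01 (SE 0.099, edgeR adjusted p = 0.984). Its fold change was 0.10 within batch 1 and -0.20 within batch 2. The counts of Aldoa come from the table row with 58124 to 91811 counts per library. A second row with the same symbol held CPM of 2.62 to 3.51 and had a log2 fold change of -0.07 (SE 0.11). Eno1b, a near copy of Eno1 counted separately, had 2222 to 3590 counts and a change of -0.01.

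Of the glucose carriers, Slc2a3, the high-affinity neuronal-type carrier, rose. Slc2a3 (ENSMUSG00000003153, chromosome 6, positions 122727809 to 122801640, minus strand) stood at 53.8, 59.7, 66.9 and 66.3 CPM in scramble replicates 1 to 4 and at 63.4, 71.9, 71.1 and 68.7 CPM in Klf4 siRNA replicates 1 to 4. The groups overlapped, since Klf4 siRNA replicate 1 lay below scramble replicates 3 and 4. The change was 0.20 on the log2 scale (SE 0.049, edgeR adjusted p = 0.0167), 0.26 within batch 1 and 0.10 within batch 2. The call was lost without scramble replicate 1 (edgeR adjusted p = 0.0688), without Klf4 siRNA replicate 4, without the batch term and with the replicate block. Slc2a1, the broadly expressed basal carrier, stood at 66.3, 69.2, 74.1 and 93.7 CPM in the scramble libraries and at 62.1, 69.9, 64.4 and 64.3 CPM in the Klf4 siRNA libraries, with scramble replicate 4 highest. Its change of -0.17 (SE 0.11) did not pass (edgeR adjusted p = 0.465), and without scramble replicate 4 it was -0.09 (SE 0.042), and without Klf4 siRNA replicate 3 it was -0.05 (SE 0.11).

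Hk1, which phosphorylates glucose and is held at the outer mitochondrial membrane, was lower after Klf4 siRNA. Hk1 (ENSMUSG00000037012, chromosome 10, positions 62268855 to 62379908, minus strand) stood at 445, 441, 500 and 544 CPM in scramble replicates 1 to 4 and at 386, 413, 443 and 420 CPM in Klf4 siRNA replicates 1 to 4. Within each batch the Klf4 siRNA libraries lay below the scramble libraries, and across batches Klf4 siRNA replicate 3 overlapped scramble replicate 2. The fitted level was 89.2% of that after scramble (log2 fold change -0.17, SE 0.036, edgeR adjusted p = 0.00429). It missed the threshold without Klf4 siRNA replicate 3 (edgeR adjusted p = 0.0885) and without the batch term (0.182). Hk1 shares exon sequence with the opposite-strand transcript Hk1os. Hk2, the inducible hexokinase, stood at 5.28, 5.42, 7.97 and 9.91 CPM in scramble replicates 1 to 4 and at 6.01, 6.71, 6.87 and 6.43 CPM in Klf4 siRNA replicates 1 to 4. Its change did not pass (0.01, SE 0.12, edgeR adjusted p = 0.974), and neither did that of Gpi1, the isomerase that makes fructose 6-phosphate (0.01, SE 0.064).

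Of the phosphofructokinases and the bifunctional enzymes that set the level of their activator fructose 2,6-bisphosphate, only Pfkp passed. Pfkp (ENSMUSG00000021196, chromosome 13, positions 6579768 to 6648777, minus strand) stood at 350, 349, 397 and 427 CPM in scramble replicates 1 to 4 and at 332, 327, 365 and 340 CPM in Klf4 siRNA replicates 1 to 4. Within each batch the Klf4 siRNA libraries were the lower, and between batches the groups overlapped. The fall of 0.11 on the log2 scale (SE 0.031, edgeR adjusted p = 0.0293) passed under 8 of 17 alternatives. Without scramble replicate 4 its adjusted p was 0.0523, and without Klf4 siRNA replicate 3 it was 0.330, both by edgeR. It also missed the threshold without scramble replicate 1 or 2 and without Klf4 siRNA replicate 1 or 2. Pfkl stood at 58.4, 59.5, 62.6 and 90.0 CPM in scramble replicates 1 to 4 and at 55.7, 65.7, 48.0 and 55.4 CPM in Klf4 siRNA replicates 1 to 4. Scramble replicate 4 stood far above the rest, and the change of -0.23 (SE 0.20, edgeR adjusted p = 0.582) became -0.11 (SE 0.11) without it and 0.00 (SE 0.19) without Klf4 siRNA replicate 3. Pfkm was the steadiest of these genes, at 164 ± 3.66 CPM after scramble and 165 ± 3.08 CPM after Klf4 siRNA (SD, n = 4 each; log2 fold change 0.02, SE 0.027). Pfkfb2 and Pfkfb3 had changes of -0.02 (SE 0.047) and -0.08 (SE 0.16).

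In the lactate group Ldhb rose and Slc16a1 fell. Ldhb (ENSMUSG00000030246, chromosome 6, positions 142490249 to 142507957, minus strand), the heart-type lactate dehydrogenase subunit, stood at 89.7, 89.3, 77.0 and 80.7 CPM in scramble replicates 1 to 4 and at 104, 104, 87.2 and 98.0 CPM in Klf4 siRNA replicates 1 to 4. Within each batch every Klf4 siRNA library was above every scramble library, while across batches Klf4 siRNA replicate 3 lay below scramble replicates 1 and 2. The rise was 0.17 on the log2 scale (SE 0.031, edgeR adjusted p = 0.000807). Slc16a1 (ENSMUSG00000032902, chromosome 3, positions 104638668 to 104658462, plus strand), the lactate and pyruvate carrier MCT1, stood at 141, 147, 153 and 153 CPM in scramble replicates 1 to 4 and at 123, 136, 138 and 130 CPM in Klf4 siRNA replicates 1 to 4. The groups did not overlap. The fitted level was 90.2% of that after scramble (log2 fold change -0.15, SE 0.031, edgeR adjusted p = 0.00296). Both calls held under 16 of 17 alternatives and were lost without the batch term, at edgeR adjusted p = 0.152 for Ldhb and 0.0828 for Slc16a1.

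The other lactate genes, Ldha and the carrier Slc16a3 (MCT4), had the widest spread of the set and did not pass. Ldha (ENSMUSG00000063229, chromosome 7, positions 46841475 to 46855627, plus strand) stood at 54.0, 53.2, 108 and 225 CPM in scramble replicates 1 to 4 and at 52.9, 84.5, 60.6 and 72.4 CPM in Klf4 siRNA replicates 1 to 4. Scramble replicates 3 and 4, both of batch 2, were the highest, and the Klf4 siRNA library of that batch lay below them. The fitted change was -0.25 (SE 0.52, edgeR adjusted p = 0.848), made of 0.36 within batch 1 and -1.36 within batch 2. Without scramble replicate 4 it was 0.01 (SE 0.34), and without Klf4 siRNA replicate 3 it was 0.38 (SE 0.42). Slc16a3 (ENSMUSG00000025161, chromosome 11, positions 120948480 to 120960868, plus strand) had 98, 84, 312 and 567 counts in scramble replicates 1 to 4 and 82, 174, 115 and 131 in those of Klf4 siRNA. Its order over the scramble libraries was like that of Ldha, and its change was -0.48 (SE 0.59, edgeR adjusted p = 0.720), with 0.38 within batch 1 and -1.65 within batch 2. Without scramble replicate 4 it was -0.14 (SE 0.43), and leaving out Klf4 siRNA replicate 3 gave 0.44 (SE 0.52).

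None of the 8 genes for pyruvate use in mitochondria passed. Their log2 fold changes ran from -0.10 to 0.09, over the carrier subunits Mpc1 and Mpc2, the dehydrogenase subunits Pdha1 and Pdhb, the kinases Pdk1, Pdk2 and Pdk3, and the pyruvate carboxylase Pcx. Pdk1, the kinase that is induced in hypoxia, stood at 48.4, 49.8, 54.9 and 73.9 CPM in scramble replicates 1 to 4 and at 50.6, 54.5, 48.3 and 50.1 CPM in Klf4 siRNA replicates 1 to 4. Scramble replicate 4 was again the highest, and the change of -0.10 (SE 0.15, edgeR adjusted p = 0.775) was 0.00 (SE 0.048) without it and 0.08 (SE 0.14) without Klf4 siRNA replicate 3. Pcx came nearest to the threshold of the 8, at 147 ± 5.48 CPM after scramble and 137 ± 4.42 CPM after Klf4 siRNA (SD, n = 4 each). Its libraries did not overlap, and its change was -0.10 (SE 0.033, edgeR adjusted p = 0.0635). It passed without Klf4 siRNA replicate 4, at -0.11 (edgeR adjusted p = 0.0188), and was -0.06 without Klf4 siRNA replicate 3 (edgeR adjusted p = 0.428). Pdhb had a change of 0.09 (SE 0.031, edgeR adjusted p = 0.0852) and passed without scramble replicate 4, at 0.10 (edgeR adjusted p = 0.0344). Mpc1, at 174 ± 7.03 and 172 ± 6.39 CPM (SD, n = 4 each), changed by -0.01 (SE 0.033).

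The pair at the entry of the pentose phosphate pathway went in opposite directions. G6pdx (ENSMUSG00000031400, chromosome X, positions 74409483 to 74429194, minus strand), the glucose 6-phosphate dehydrogenase, stood at 67.9, 66.7, 69.3 and 71.4 CPM in scramble replicates 1 to 4 and at 59.9, 63.4, 63.2 and 65.5 CPM in Klf4 siRNA replicates 1 to 4. The groups did not overlap, and the fall was 0.12 on the log2 scale (SE 0.033, edgeR adjusted p = 0.0245). G6pdx passed under 9 of 17 alternatives and missed without scramble replicate 4 (edgeR adjusted p = 0.0548), as it did without each other scramble library and without Klf4 siRNA replicate 1 or 3. Pgd (ENSMUSG00000028961, chromosome 4, positions 149149991 to 149166771, minus strand), the next dehydrogenase of the pathway, stood at 92.5, 93.5, 96.8 and 102 CPM in scramble replicates 1 to 4 and at 98.0, 104, 107 and 104 CPM in Klf4 siRNA replicates 1 to 4. Klf4 siRNA replicate 1 lay inside the scramble range and the other Klf4 siRNA libraries lay above it. The rise was 0.12 on the log2 scale (SE 0.031, edgeR adjusted p = 0.0110). The call was lost without scramble replicate 1 (edgeR adjusted p = 0.0793) or 2, without the batch term and with the replicate block.

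**Figure D4:**
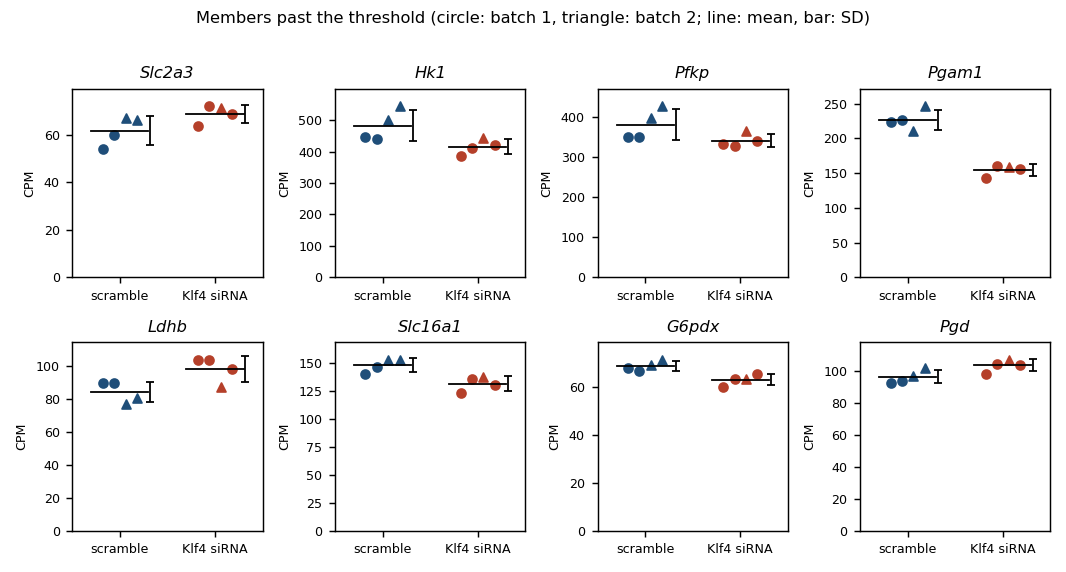
CPM in each library for the 8 genes that passed the threshold for treatment, on axes from 0, with circles for batch 1, triangles for batch 2, lines at the group means and bars of 1 SD (n = 4 each). Pgam1, Slc16a1 and G6pdx have no overlap between treatments, and the distance between the groups is largest for Pgam1, at 227 against 154 CPM.

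Altogether 25 of the 33 tested genes did not pass for treatment, and 20 of these had changes under 0.1 on the log2 scale in size. All 8 that passed had the same sign within both batches. Passing the test in these same libraries favours that, so it adds no support. Of the 33 genes, 16 had the same sign within both batches, beside 64.8% of all tested genes. The count was 17 of 33, beside 64.6%, without scramble replicate 4. Within batch 1 the difference was positive for 20 genes and negative for 13, and within batch 2 it was positive for 5 and negative for 28. Batch 2 rests on 2 scramble libraries, 1 of which is scramble replicate 4, and 1 Klf4 siRNA library. With that scramble library left out, the difference within batch 2 was positive for 7 genes and negative for 26, beside 48.9% positive over all genes then tested.

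Beside Ldha and Slc16a3, the genes with the largest excess in scramble replicate 4 were Pfkl, Hk2, Pdk1, Aldoc, Eno2 and Slc2a1. The ratio of scramble replicate 4 to the mean of the other 7 libraries was 3.86 for Slc16a3, 3.24 for Ldha, 1.56 for Pfkl, 1.55 for Hk2, 1.45 for Pdk1, 1.40 for Aldoc, 1.40 for Eno2 and 1.40 for Slc2a1. Against scramble replicate 3, which shares its batch and treatment, the ratio was 2.01 for Slc16a3 and 2.08 for Ldha. Apart from Pdk1, the genes of pyruvate use in mitochondria had ratios from 1.02 for Pdk2 and Pdk3 to 1.11 for Pcx. G6pdx and Pgd of the pentose phosphate pathway lay inside that range, and Ldhb was lower, at 0.870. Of the 13 tested genes on the list of other hypoxia-inducible genes, 8 were highest in that library (Ankrd37, Bnip3, Bnip3l, Fam162a, Higd1a, Ndrg1, P4ha1 and Vegfa), beside 17.7% of all tested genes. The count was 5 of 9 for other glycolysis genes, 4 of 6 for later pentose phosphate steps and 2 of 6 for glucose output. For the NADH shuttles it was 3 of 9, for other sugar and lactate carriers 2 of 7 and for the regulators 4 of 15. It was 4 of 16 for the citrate cycle and 2 of 8 for other lactate and pyruvate dehydrogenase genes.

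**Figure D5:**
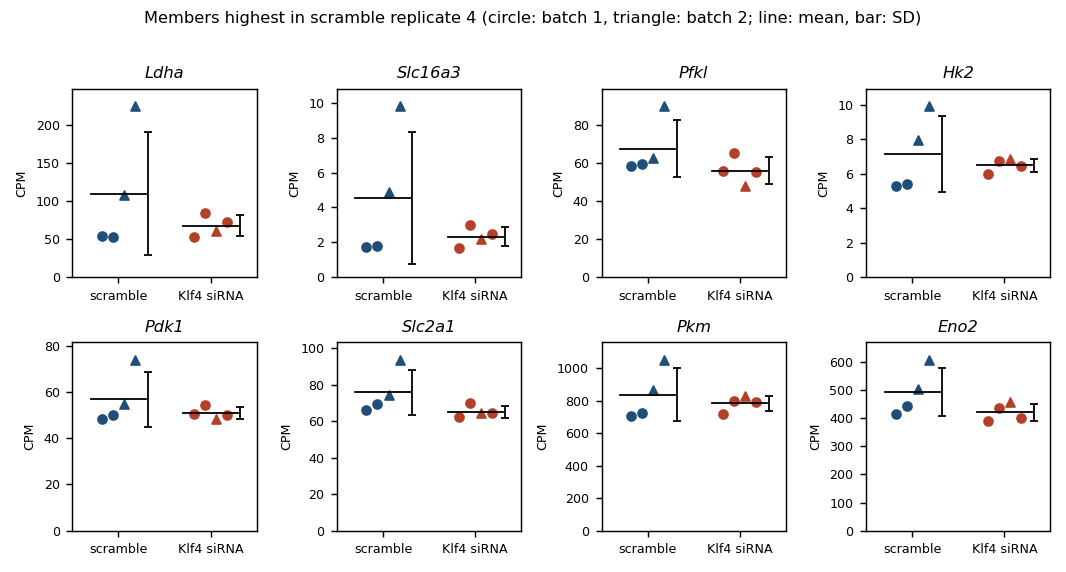
CPM in each library for Ldha, Slc16a3, Pfkl, Hk2, Pdk1, Slc2a1, Pkm and Eno2, on axes from 0, with circles for batch 1, triangles for batch 2, lines at the group means and bars of 1 SD (n = 4 each). Scramble replicate 4 is the highest point in each panel, at 225 CPM for Ldha and 9.79 CPM for Slc16a3.

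Promoter sequence is shown for the genes on which these contrasts turn: Pgam1, with the largest fall, Ldha and Slc16a3, with the largest spread between libraries, and Ldhb, the isozyme partner of Ldha that rose. Each run gives the 250 bases before a RefSeq transcription start on the strand of the gene (GRCm38.p6). The runs lie at chr19:41911621-41911870 (plus) for Pgam1, chr7:46845554-46845803 (plus) for Ldha, chr11:120948817-120949066 (plus) for Slc16a3 and chr6:142507958-142508207 (minus) for Ldhb. Capitals mark ACGTG on either strand, the core of the element bound by hypoxia-inducible factors.
Pgam1: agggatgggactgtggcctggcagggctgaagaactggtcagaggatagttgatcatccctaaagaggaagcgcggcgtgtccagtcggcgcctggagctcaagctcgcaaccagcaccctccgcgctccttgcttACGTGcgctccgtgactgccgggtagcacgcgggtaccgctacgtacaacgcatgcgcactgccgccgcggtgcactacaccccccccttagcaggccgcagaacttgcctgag
Ldha: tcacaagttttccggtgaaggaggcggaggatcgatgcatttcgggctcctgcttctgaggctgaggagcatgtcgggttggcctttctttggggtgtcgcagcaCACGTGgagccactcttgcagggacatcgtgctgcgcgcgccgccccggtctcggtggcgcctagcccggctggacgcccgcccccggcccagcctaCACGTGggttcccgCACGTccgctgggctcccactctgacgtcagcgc
Slc16a3: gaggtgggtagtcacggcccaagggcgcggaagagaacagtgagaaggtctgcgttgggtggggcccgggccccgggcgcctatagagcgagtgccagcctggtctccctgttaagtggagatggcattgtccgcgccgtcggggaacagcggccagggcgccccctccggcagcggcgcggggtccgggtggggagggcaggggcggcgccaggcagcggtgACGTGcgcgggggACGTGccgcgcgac
Ldhb: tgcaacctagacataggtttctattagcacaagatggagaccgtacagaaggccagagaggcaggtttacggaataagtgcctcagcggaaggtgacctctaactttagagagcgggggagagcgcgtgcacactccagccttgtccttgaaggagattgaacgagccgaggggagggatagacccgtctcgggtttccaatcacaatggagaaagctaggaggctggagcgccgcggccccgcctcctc
The Ldha run holds 5 matches in 3 stretches, because CACGTG reads ACGTG on both strands. It lies before 1 of 2 RefSeq starts given for Ldha, and the window of the other (chr7:46846832-46847131) holds 0 matches. Slc16a3 holds 2 matches, Pgam1 holds 1 and Ldhb holds 0. RefSeq windows of 300 bases, 250 before to 50 after the start, were given for 33 of the 34 genes (52 windows), and ACGTG was found in 24 of those 52 windows. Of all 32851 windows given, 19.6% held it. CACCC, the core bound by KLF factors, was in 35 of the 52 windows and in 57.5% of all windows, and GGGCGG, the GC box, in 29 of 52 and in 35.7% of all. Both were searched on both strands. The ratio of scramble replicate 4 to the other libraries had a median of 1.24 over the 20 tested genes with ACGTG in a window and 1.20 over the 12 without it. These matches describe the sequence and do not show binding.

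For batch 2 against batch 1, 10 of the 33 genes passed, a share of 30.3% beside 32.7% of all tested genes. Aldoc, Hk1, Hk2, Mpc2, Pdha1, Pfkp, Slc16a1 and Slc2a3 were higher in batch 2, and Ldhb and Pdk2 were lower. The percentage of all tested genes was 16.8% for higher and 15.9% for lower. The log2 differences were positive for 31 of the 33 genes with a median of 0.10, beside a median of 0.00 over all tested genes. Without scramble replicate 4 the differences were positive for 24, with a median of 0.07, and 11 genes passed, beside 28.8% of all genes then tested. With Klf4 siRNA replicate 3 left out, batch 2 held scramble libraries alone. The median was then 0.23, with 31 positive, and 13 passed, beside 23.2% of all genes then tested. Leaving out scramble replicate 1, 6 passed, with a median of 0.10, beside 26.5% of all genes then tested that passed. With scaling by library size alone the median of all tested genes moved to -0.04 and that of the set to 0.07, with 27 positive. That scaling moved the share of higher among all genes that passed from 51.4% to 38.9%. Gcg and Sox9 moved with batch, as given above, and their part in these differences was not tested.

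Hk2 had the largest difference of those that passed for batch. Its 5 libraries of batch 1 lay between 5.28 and 6.71 CPM and its 3 of batch 2 between 6.87 and 9.91 CPM, without overlap (log2 difference 0.47, SE 0.13, edgeR adjusted p = 0.0138). It was lost without scramble replicate 1 or 2 and was 0.74 (SE 0.11) without Klf4 siRNA replicate 3. Aldoc, the brain-type aldolase, stood at 5.14, 5.08, 6.01 and 7.46 CPM in scramble replicates 1 to 4 and at 4.97, 5.40, 5.43 and 5.22 CPM in Klf4 siRNA replicates 1 to 4. Its batches did not overlap, the difference was 0.26 (SE 0.092, edgeR adjusted p = 0.0373), and without scramble replicate 4 it was 0.14 and missed the threshold (edgeR adjusted p = 0.244). It was also lost without scramble replicate 1 or 2 and without Klf4 siRNA replicate 1, and without Klf4 siRNA replicate 3 it was 0.40. Mpc2, a subunit of the mitochondrial pyruvate carrier, stood at 85.4 ± 1.03 CPM in batch 1 (SD, n = 5) and at 94.4 ± 1.69 CPM in batch 2 (SD, n = 3). The batches of Mpc2 did not overlap, with 85.8, 85.1, 95.4 and 95.4 CPM in scramble replicates 1 to 4 and 83.9, 85.5, 92.5 and 86.7 CPM in those of Klf4 siRNA (log2 difference 0.14, SE 0.029, edgeR adjusted p = 0.000912).

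Pdha1, the catalytic subunit of pyruvate dehydrogenase, stood at 242, 245, 264 and 259 CPM in scramble replicates 1 to 4 and at 228, 241, 255 and 242 CPM in Klf4 siRNA replicates 1 to 4. Its batches did not overlap (log2 difference 0.10, SE 0.029, edgeR adjusted p = 0.00841), and the call was lost with scaling by library size alone (edgeR adjusted p = 0.123) or when Klf4 siRNA replicate 3 was left out. Pdk2, a kinase that inhibits that subunit, stood at 94.0, 89.8, 79.9 and 88.7 CPM in scramble replicates 1 to 4 and at 86.7, 90.4, 78.5 and 86.6 CPM in Klf4 siRNA replicates 1 to 4. Its batches overlapped at scramble replicate 4, and the difference was -0.14 (SE 0.036, edgeR adjusted p = 0.00496). It was lost without Klf4 siRNA replicate 3 (edgeR adjusted p = 0.0741). The genes that also passed for treatment had batch differences of 0.19 for Hk1, 0.19 for Pfkp, 0.16 for Slc2a3, 0.09 for Slc16a1 and -0.20 for Ldhb. Of these, Hk1, Pfkp and Ldhb passed for batch under all 15 alternatives, Slc2a3 under 10 and Slc16a1 under 5. The difference of Slc2a3 was 0.11 without scramble replicate 1. Ldha and Slc16a3 had the largest differences, at 0.92 (SE 0.53) and 1.19 (SE 0.57), and did not pass (edgeR adjusted p = 0.265 and 0.191). They were 0.41 (SE 0.36) and 0.70 (SE 0.44) without scramble replicate 4, and 1.63 (SE 0.45) and 2.04 (SE 0.49) without Klf4 siRNA replicate 3, where neither passed.

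Whether the effect of Klf4 siRNA differed between batches was tested by an interaction. No gene of the 16333 passed (0%), by edgeR or by limma, and 540 had an unadjusted p under 0.05 by edgeR. In the set 6 genes had such a p, all with a more negative change in batch 2, namely Hk2, Eno1, Gpi1, Aldoa, Tpi1 and Slc16a3, each at an edgeR adjusted p of 0.999. The share with such a p was 3.31% over all tested genes. In the fit without scramble replicate 4 it was again 6 genes of the set, then Eno1, Hk2, Pdk1, Pfkl, Pkm and Slc16a3, beside 2.56% of all, and no gene passed after adjustment. The largest interaction estimates were -2.18 for Slc16a3 (SE 0.79) and -1.84 for Ldha (SE 0.70). Without scramble replicate 3, which leaves scramble replicate 4 and Klf4 siRNA replicate 3 alone in batch 2, 13 genes passed, or 0.0789%, and 6 of them were Eno1, Pdk1, Pfkl, Pkm, Slc16a3 and Slc2a1. Each was lower. In this fit and in that without scramble replicate 4, batch 2 has 1 library of each treatment, and these are assumed to vary like those of batch 1.

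Of 107 further genes of these and neighbouring pathways, 89 were tested, and 4 were higher and 13 lower after Klf4 siRNA, with a median log2 fold change of -0.01. These counts stand beside the 4.88% higher and 6.81% lower of all tested genes. Of the other glycolysis genes, 2 of 9 tested fell: Hkdc1, a hexokinase-like gene, by 0.42 (SE 0.10, edgeR adjusted p = 0.00731), and Bpgm, which makes and mutates bisphosphoglycerate, by 0.18 (SE 0.041, edgeR adjusted p = 0.00538). Of the other carriers, 1 of 7 fell, the urate and sugar carrier Slc2a9, by 0.49 (SE 0.12, edgeR adjusted p = 0.0114). Of 6 tested genes of glucose output, Slc37a4, the glucose 6-phosphate carrier of the endoplasmic reticulum, fell by 0.23 and Pck2, the mitochondrial phosphoenolpyruvate carboxykinase, by 0.14 (edgeR adjusted p = 0.0263 and 0.00655). G6pc2, the islet glucose 6-phosphatase, had a change of -0.14 that did not pass (edgeR adjusted p = 0.195), though it passed under 3 of 17 alternatives.

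Of 8 further genes of lactate and pyruvate dehydrogenase, only Pdp2, a phosphatase that reactivates the complex, passed, and it fell by 0.27 (SE 0.052, edgeR adjusted p = 0.00210). Rpia, a pentose isomerase, fell by 0.31 (edgeR adjusted p = 0.0262) and was the 1 of 6 later pentose phosphate genes to pass. In the citrate cycle 3 of 16 genes passed: the succinate dehydrogenase subunit Sdhd fell by 0.16 (edgeR adjusted p = 0.000956), while the subunit Sdhc rose by 0.12 and the isocitrate dehydrogenase subunit Idh3g by 0.09. The rise of Idh3g held under 6 of 17 alternatives. Of 9 genes of the NADH shuttles, Slc25a12, the mitochondrial aspartate-glutamate carrier, fell by 0.26 (SE 0.027, edgeR adjusted p = 1.47e-06) with 164 ± 9.22 CPM after scramble and 133 ± 8.48 CPM after Klf4 siRNA (SD, n = 4 each). Gpd2, of the glycerol phosphate shuttle, fell by 0.12 (edgeR adjusted p = 0.0178).

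Among 15 tested regulators of glycolytic genes, the hypoxia-inducible factor subunits Hif1a and Arnt rose, and Egln1 and Egln2, prolyl hydroxylases that mark the factor for breakdown, fell. Arnt rose by 0.22 (SE 0.033, edgeR adjusted p = 0.000131) and Hif1a by 0.11 (SE 0.028, edgeR adjusted p = 0.0120). Egln2 fell by 0.20 (SE 0.029, edgeR adjusted p = 5.93e-05) and Egln1 by 0.21 (SE 0.047, edgeR adjusted p = 0.00989). Egln3 had a change of -0.61 that did not pass (edgeR adjusted p = 0.0538), though it passed under 4 of 15 alternatives. Of 13 other hypoxia-inducible genes tested, Mxi1, a MAX-binding repressor, fell by 0.40 (SE 0.039, edgeR adjusted p = 7.47e-07) and was the only one to pass. The median of these 13 was -0.07. Of these 17 further genes, Arnt, Egln2, Pdp2 and Slc25a12 passed under all alternatives, and Bpgm, Sdhd and Mxi1 were lost without the batch term alone. Leaving out scramble replicate 1 ended the calls of Hif1a, Gpd2, Idh3g, Pck2, Rpia, Sdhc, Slc2a9 and Slc37a4, and leaving out Klf4 siRNA replicate 3 those of Hkdc1, Egln1, Gpd2, Pck2, Rpia and Slc2a9. Leaving out another single library ended those of Egln1, Gpd2, Hif1a, Idh3g, Rpia or Slc37a4. For batch, 31 of the 89 genes were higher in batch 2 and 5 were lower, beside the 16.8% and 15.9% of all tested genes. The largest were Epas1 at 1.51, from 15 to 28 counts in batch 1 and 55 to 78 in batch 2, Slc16a7, a lactate carrier, at 1.37, and Mlxipl, which encodes the glucose-sensing factor ChREBP, at 0.98.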

How the data were processed

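Poly(A) RNA of alphaTC6 cells was sequenced in 8 libraries, 4 after scramble siRNA and 4 after a Klf4 siRNA pool. The authors deposited raw counts, a whole number for each gene in each library. The submitters' processing notes name FastQC, STAR, featureCounts, DESeq2 and the build mm10, with no versions, and the design text names EdgeR with batch correction. The use of strand in counting is not given in the sources used here, so reads of 12 of the 34 genes (Slc2a1, Hk1, Gpi1, Pfkm, Pfkp, Pfkfb2, Aldoa, Tpi1, Gapdh, Mpc1, Pdha1 and G6pdx) could be shared with an opposite-strand gene that overlaps their exons, and those of Pfkm, Pfkfb2 and Pkm with 1 on the same strand. The extraction text speaks of islets, whereas all samples are labelled as the cell line. All 55536 gene identifiers matched GENCODE M21 (GRCm38), which gave positions and exon lengths. Promoter sequences are from RefSeq (GRCm38.p6).

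Genes were kept with filterByExpr, and TMM factors (0.964 to 1.02) scaled the library sizes. Batch and treatment were fitted with the robust quasi-likelihood test of edgeR 4.0.16 in R 4.3.3, with 5 residual degrees of freedom. Batch differences came from the same fit. The interaction was tested the same way in a fit of its own, with fewer residual degrees of freedom. Two-sided p-values were adjusted over the 16333 tested genes (Benjamini-Hochberg), with a threshold of 0.05. Each standard error was derived from the F statistic, as the size of the log2 fold change over its square root. CPM use TMM-scaled library sizes, and changes within a batch are differences of mean log2 CPM with a prior count of 2. Where 2 rows share a symbol (Aldoa), the row with more counts was used.

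The genes of the set and the further lists were chosen with earlier results of these data known. Per-library values are given for genes past the threshold for treatment (up to 12) or batch (the 10 largest), for Hk1, Hk2, Pfkl, Pkm, Ldha and Pdk1 whatever their result, and for genes with few counts. From the further lists at most 4 genes per list past the threshold for treatment and 3 for batch are named. Alternatives were other scalings (DESeq2 size factors or library size alone), other tests (DESeq2 1.42.0 with its Wald test, or limma-voom with limma 3.58.1), other filters (none, or 5 CPM on average), leaving out 1 library at a time, other designs (no batch term, batch 1 alone, or a replicate block) and, for batch, the scramble libraries alone. The smallest chi-square per degree of freedom between 2 libraries was 10.2, so no library was counted as a duplicate.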

Additional observations from a re-analysis of the deposited data

Results flagged for a closer look

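Within a treatment, 4 of 66 groups of 4 libraries had a library far from the others, where chance gives about 1 in 20. The gap of scramble replicate 4 to the next library took 0.869 of the range of the scramble libraries for Pfkl (90.0 CPM against 58.4 to 62.6), 0.923 for Gapdh (2838 against 2361 to 2398) and 0.833 for Pcx (155 against 144 to 146). For Pfkfb3, Klf4 siRNA replicate 2 stood at 11.9 CPM against 8.47 to 8.77 in the other Klf4 siRNA libraries, a gap of 0.911 of the range.

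For 6 genes the Klf4 siRNA libraries lay above the scramble libraries in batch 1 and below them in batch 2, with no overlap in either batch. Of all tested genes, 4.72% had the libraries apart in both batches in opposite directions. Without scramble replicate 4, which leaves 1 library of each treatment in batch 2, these 6 genes and Pfkm did, beside 8.47% of all. The interaction on the log2 scale was -0.635 for Hk2, -0.489 for Pdk1, -0.321 for Eno1, -0.25 for Aldoa, -0.237 for Gpi1 and -0.0882 for Pdk3. None passed the threshold (edgeR adjusted p = 0.999 for each), and batch 2 holds 1 Klf4 siRNA library.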

How the results depend on the processing

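For treatment, 1909 genes and 8 of the set passed. Without the batch term 409 genes and 1 of the set (Pgam1) passed, and with batch 1 alone 1232 genes and 6 of the set. Leaving out each library in turn gave 934 to 2021 genes and 4 to 8 of the set, the lowest of both without scramble replicate 1. The Klf4 change ran from -1.46 to -1.24 over the libraries left out, at -1.27 without scramble replicate 1 (edgeR adjusted p = 0.0524), and was -1.39 with batch 1 alone (edgeR adjusted p = 0.104). For batch, 10 of the set passed, beside 32.7% of all tested genes. When genes under 5 CPM on average were left out, 16 of 32 passed, beside 39.1% of all. With each library left out it was 6 to 13 of the set, beside 23.2% to 37.2% of all. The interaction gave 0 to 13 genes and 0 to 6 of the set, and could not be fitted without Klf4 siRNA replicate 3, which leaves batch 2 with scramble libraries alone. The other scalings, tests and filters left the treatment and batch counts within 1.5 times their values, and no gene of the set that passed changed sign. For the interaction only DESeq2 size factors and limma-voom were run besides leaving out libraries, and both gave 0 genes.

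With the replicate number as a block in place of batch, 1220 genes and 6 of the set passed (G6pdx, Hk1, Ldhb, Pcx, Pgam1 and Slc16a1). Scramble replicate 4 is of batch 2 and Klf4 siRNA replicate 4 of batch 1, so this block leaves a batch difference inside that pair. Deviations from the group means of libraries with the same number correlated at 0.49, 0.42, 0.72 and -0.34 for replicates 1 to 4, and with batch removed at -0.00053, -0.040, -0.30 and 0.12. Since not every pair lay above 0.1, the numbers were not taken to pair the libraries. Slc2a2, at 3 to 13 counts, is too shallow for a comparison.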
